A study of Homo sapiens with 4 samples.

Results

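The genes that make, import, store and export cholesterol were examined in Huh7 and HepG2 cells after COP1 knockdown. The set held 34 genes, chosen by name for their known role in sterol synthesis, its control by SREBP2, uptake and movement within the cell, esterification or efflux, out of 46427 gene numbers in the tables. Both cell lines are established and derive from human liver tumours, labelled as hepatocellular carcinoma and wild type. Cells were exposed for 5 h to 20 nM of an siRNA in a lipid reagent, either the negative control (NC-siRNA) or one directed at COP1 (COP1-siRNA), and were collected 48 h later, so both groups of a line went through transfection. Strand-specific libraries were made from poly(A)+ RNA, and all 4 carry one batch label. There was 1 library per line and siRNA. No difference within a line therefore has a replicate check, a fit over both lines with 1 residual degree of freedom was not run, no p-value is given, and the results describe these 4 libraries of 1 siRNA per group.

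Cholesterol is built from acetyl-CoA in the mevalonate steps, which end in farnesyl pyrophosphate, and the sterol steps, which join 2 farnesyl units into squalene, close the rings and trim lanosterol to cholesterol. When sterol in the endoplasmic reticulum is low, SCAP escorts the transcription factor SREBP2 to the Golgi, where proteases free its active part, and most genes of synthesis are then transcribed together. INSIG proteins hold SCAP back when sterol is plentiful. Surplus cholesterol is esterified by the SOAT enzymes or exported by ABC transporters, whose genes respond to the liver X receptors, and hepatocytes carry much of this traffic for the whole body.

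COP1, a ubiquitin ligase subunit on the minus strand of chr1:175944826-176209087 (GRCh38), was examined first, because it checks the labels. Huh7 cells held 19.7 TPM of COP1 after the control siRNA and 6.18 TPM after COP1-siRNA, and HepG2 cells 26.9 and 16.1 TPM. TPM is a level per transcript length, scaled to a total of 1000000 in each library. On the scale of log2(TPM + 1) used for all fold changes here, COP1 fell by 1.53 in Huh7, past the study's 2-fold threshold, and was −0.71 in HepG2, which passed 1.5-fold only. The knockdown left 31.4% of the control level in Huh7 and 59.9% in HepG2. The hepatocyte genes ALB and AFP were expressed at 8117 and 7444 TPM in Huh7 with NC-siRNA and at 1509 and 370.3 TPM in HepG2. The leukocyte markers PTPRC and CD3E and the fibroblast marker DCN were listed at 0 in all 4 libraries, while CD68 ranged from 15.6 to 58.2 TPM. Of the other fibroblast markers, COL1A1 read 2.33 and 2.47 TPM in HepG2 and 0.05 and 0.09 TPM in Huh7. COL3A1 ranged from 0.18 to 0.31 TPM. The endothelial marker PECAM1 read 5.08 and 7.36 TPM in Huh7, where CDH5 and VWF were listed at 0. Fold changes were taken for genes with at least 1 TPM in at least 1 of the libraries compared.

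The sequence before the start sites of these genes was read for motifs, and 6 stretches are shown. EBP, MSMO1 and DHCR7 are among the synthesis genes that differed most between the lines, TM7SF2 and HSD17B7 had the lowest values after knockdown in HepG2, and SREBF2 encodes the regulator. RefSeq (GRCh38.p14) supplied a window from 250 bases before to 50 after the start for 28 of the 34 genes. Each line gives the 250 bases before the start, 5′ to 3′. Synthesis genes and SREBF2 were eligible if their RefSeq start lay within 20 bases of that in the tables and their window held a CCAAT box. The presence of a box was therefore set by the choice, and IDI1, whose window held 0 boxes, was left out. SC5D, with 1 box, was also eligible and is not shown. Capitals mark the CCAAT box, read as CCAAT or, on the other strand, ATTGG. In SREBF2 they also mark a match to TCACNCCAC, a form of the sterol regulatory element to which SREBP binds.
EBP: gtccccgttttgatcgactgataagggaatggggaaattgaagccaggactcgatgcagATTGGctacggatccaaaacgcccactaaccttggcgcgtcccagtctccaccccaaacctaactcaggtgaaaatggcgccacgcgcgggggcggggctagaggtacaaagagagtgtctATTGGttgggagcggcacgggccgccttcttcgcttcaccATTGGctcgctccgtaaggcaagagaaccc
MSMO1: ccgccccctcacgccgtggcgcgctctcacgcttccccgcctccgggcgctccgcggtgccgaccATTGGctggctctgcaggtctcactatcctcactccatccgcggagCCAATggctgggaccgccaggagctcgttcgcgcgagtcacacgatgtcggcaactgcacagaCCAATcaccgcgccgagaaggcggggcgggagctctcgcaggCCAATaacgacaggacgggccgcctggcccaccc
DHCR7: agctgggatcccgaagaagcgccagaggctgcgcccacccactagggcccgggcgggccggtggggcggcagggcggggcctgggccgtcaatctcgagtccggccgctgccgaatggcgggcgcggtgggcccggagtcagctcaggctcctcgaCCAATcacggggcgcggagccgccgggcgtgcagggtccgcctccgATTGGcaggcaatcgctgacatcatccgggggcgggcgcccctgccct
TM7SF2: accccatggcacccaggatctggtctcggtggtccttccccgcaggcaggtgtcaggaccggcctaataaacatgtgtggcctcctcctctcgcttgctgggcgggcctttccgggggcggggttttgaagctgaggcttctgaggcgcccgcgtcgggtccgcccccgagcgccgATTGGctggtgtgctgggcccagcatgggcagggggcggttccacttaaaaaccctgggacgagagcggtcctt
HSD17B7: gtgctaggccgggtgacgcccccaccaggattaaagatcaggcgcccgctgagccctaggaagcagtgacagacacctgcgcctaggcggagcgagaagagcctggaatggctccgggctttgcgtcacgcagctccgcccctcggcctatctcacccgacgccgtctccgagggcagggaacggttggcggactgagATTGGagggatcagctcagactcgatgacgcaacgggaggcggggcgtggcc
SREBF2: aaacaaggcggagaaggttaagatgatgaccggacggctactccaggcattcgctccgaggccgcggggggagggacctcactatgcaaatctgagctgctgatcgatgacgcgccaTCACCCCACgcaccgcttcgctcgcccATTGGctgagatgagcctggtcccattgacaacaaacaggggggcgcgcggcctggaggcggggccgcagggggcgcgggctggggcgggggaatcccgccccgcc
EBP lay at chrX:48521558-48521807 on the plus strand, MSMO1 at chr4:165327419-165327668 (plus) and DHCR7 at chr11:71448394-71448643 (minus). TM7SF2 lay at chr11:65111622-65111871 (plus), HSD17B7 at chr1:162790452-162790701 (plus) and SREBF2 at chr22:41832855-41833104 (plus). The stretches held 3 CCAAT boxes in EBP, 4 in MSMO1, 2 in DHCR7 and 1 each in TM7SF2, HSD17B7 and SREBF2. Within these stretches, the last box ended 25 bases before the start in EBP, 29 in MSMO1, 43 in DHCR7 and 47 in HSD17B7. In TM7SF2 and SREBF2 the box lay further from the start than in any of these genes. The whole window of HSD17B7 held 2 boxes, and the other lay after the start, beyond the stretch shown.

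Across the whole windows, read on both strands, CCAAT was present in 12 of 15 synthesis genes (80.0%) and in 7 of 13 other members, against 36.9% of 11552 genes tested in either line. Windows with 2 or more boxes were found for 9 of the 15 synthesis genes and 13.9% of tested genes, with overlapping matches counted separately. The GC box, GGGCGG, was in 14 of 15 synthesis windows and 69.3% of tested genes. TCACNCCAC was found in SREBF2 alone among the 28 genes and in 1.04% of tested genes. Other forms of the sterol regulatory element were not searched. The count of 0 of 15 synthesis windows therefore does not show that these genes lack the element. The liver X receptor element searched, a pair of AGGTCA half-sites with a gap of 4 bases, was in 0 of 28 windows and in 0 of 11552 tested genes, so the search was too strict to tell the members apart from others. ABCG5 and ABCG8, which lie head to head, had windows that shared 231 bases. These matches describe letters in the windows and not binding.

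**Figure D1:**
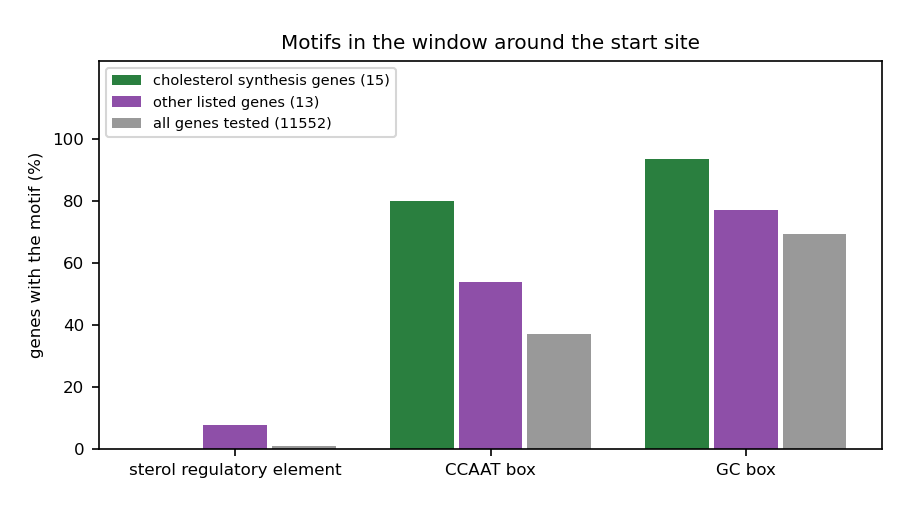
Percentage of genes (vertical axis) whose window of 250 bases before to 50 after the start holds each motif (horizontal axis), for 15 synthesis genes, 13 other listed genes and 11552 tested genes. The CCAAT box was present in 80.0% of synthesis windows and 36.9% of tested genes.

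The genes of synthesis stood far higher in Huh7 than in HepG2 before any knockdown. Their 18 TPM values summed to 4322 in Huh7 and 1481 in HepG2 with NC-siRNA, a ratio of 2.92, with mevalonate steps at 3.05 and sterol steps at 2.83. Of 31 members tested, 17 were at least 2-fold higher in Huh7 (background 14.7% of 15055 genes) and 1 was at least 2-fold lower (background 27.9%). The members' median difference was 1.08 and that of all tested genes −0.37. With COP1-siRNA in both lines, 16 of 33 were at least 2-fold higher in Huh7 (background 14%) and 2 lower (background 26%), and the medians were 0.79 and −0.35. These comparisons share libraries with those within each line, so their values stand side by side and are not independent. The lines differ in much besides these genes, and fewer cells of a kind and less RNA per cell cannot be told apart in bulk RNA. All 7 hepatocyte lineage markers were also at least 2-fold higher in Huh7, summing to 22195 TPM against 2965 TPM, and their part in the difference was not tested.

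HMGCS1, the synthase that condenses acetyl-CoA with acetoacetyl-CoA to HMG-CoA, showed the largest difference of the 34. Its level in Huh7 was 349.7 TPM before and 279 TPM after knockdown, and 37.3 and 35.2 TPM in HepG2. The Huh7 level was 9.37 times that of HepG2 with NC-siRNA, and the gene ranked 5 among members in Huh7 and 17 in HepG2. EBP, the isomerase that shifts the sterol double bond, was the most abundant member in Huh7, at 879.8 and 753 TPM, against 157 and 149 TPM in HepG2. DHCR7, which reduces 7-dehydrocholesterol to cholesterol, read 464 and 397 TPM in Huh7 and 99.0 and 94.2 TPM in HepG2. EBP and DHCR7 thus stood 5.62- and 4.69-fold higher in Huh7 with NC-siRNA.

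The other synthesis genes past 2-fold ran along the whole pathway. ACAT2, the thiolase that opens it, read 395 TPM in Huh7 and 145 TPM in HepG2 with NC-siRNA, and 341 and 148 TPM with COP1-siRNA. MVK, mevalonate kinase, read 70.4 and 17.8 TPM with NC-siRNA and 62.1 and 17.5 TPM with COP1-siRNA. MVD, which decarboxylates mevalonate pyrophosphate, read 113 and 31.4 TPM, then 86.2 and 31.5 TPM. These genes stood 2.73-, 3.95- and 3.60-fold higher in Huh7 with NC-siRNA. IDI1, the isomerase of isopentenyl pyrophosphate, read 235 and 62.6 TPM, then 177 and 54.2 TPM. FDPS, farnesyl pyrophosphate synthase, was the most abundant member in HepG2, with 523 and 234 TPM under NC-siRNA and 501 and 246 TPM under COP1-siRNA. In the sterol steps, LSS (lanosterol synthase) read 93.3 and 32.7 TPM, then 84.7 and 31.3 TPM. CYP51A1 (lanosterol 14-demethylase) read 246 and 97.8 TPM, then 211 and 94.3 TPM, and MSMO1 (sterol 4-methyl oxidase) 291 and 75.6 TPM, then 250.5 and 78.7 TPM.

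A few enzymes did not share the pattern. PMVK (phosphomevalonate kinase) differed by 0.12, NSDHL (a sterol 4-decarboxylase) by 0.13 and SC5D (the sterol 5-desaturase) by 0.26 between the NC-siRNA libraries. SQLE, squalene epoxidase, differed by 0.51. FDFT1, squalene synthase, read 294 and 161 TPM, then 268 and 154 TPM, a difference of 0.87 and 0.79, the first of which passed 2-fold under median-of-ratios scaling. TM7SF2 and HSD17B7 had the opposite sign, −0.90 and −0.77. TM7SF2, a sterol 14-reductase, read 18.8 TPM in Huh7 and 36.0 TPM in HepG2. HSD17B7, a sterol 3-ketoreductase, read 15.2 and 26.6 TPM with NC-siRNA and 14.2 and 17.3 TPM with COP1-siRNA.

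**Figure D2:**
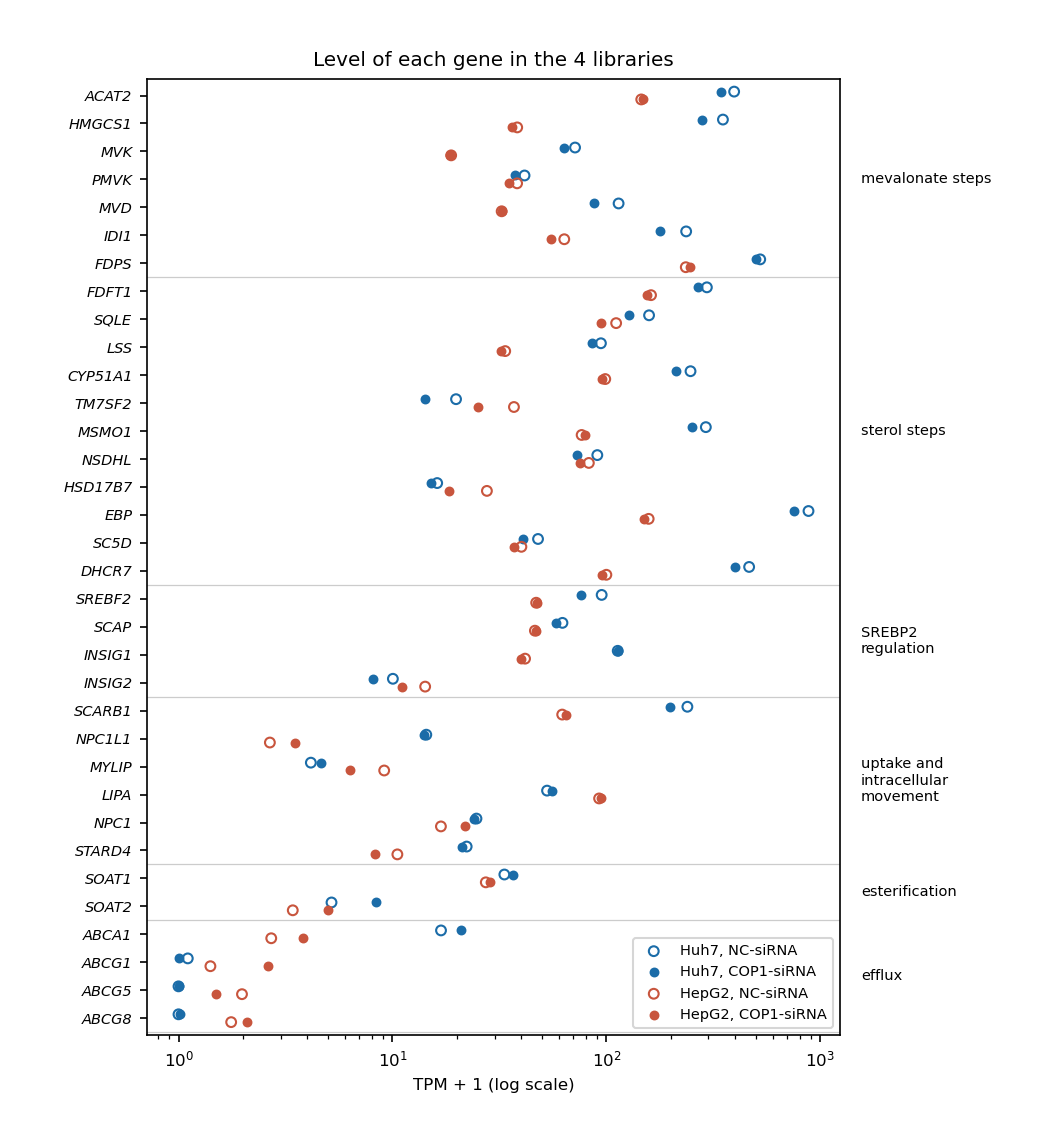
Level of each of the 34 genes as TPM + 1 on a log axis (horizontal), in role groups (vertical), in the Huh7 (blue) and HepG2 (red) libraries with NC-siRNA (open) and COP1-siRNA (filled), 1 library each. Most synthesis genes lie further right in Huh7, where HMGCS1 read 349.7 TPM against 37.3 TPM in HepG2 with NC-siRNA.

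Among regulators, SREBF2, which encodes SREBP2, read 94.1 TPM in Huh7 and 46.0 TPM in HepG2 with NC-siRNA, a difference of 1.02 that just passed 2-fold and was 0.92 under upper-quartile scaling and from scaled coverage. With COP1-siRNA the levels were 74.8 and 46.5 TPM, and the difference, 0.68, did not pass. INSIG1 read 112 and 40.7 TPM with NC-siRNA and 112 and 39.0 TPM with COP1-siRNA, more than 2-fold apart in both pairs. SCAP (61.3 and 45.3 TPM) and INSIG2 (9.05 and 13.2 TPM) differed by 0.43 and −0.50.

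Uptake genes were mixed. SCARB1, the receptor that takes up cholesteryl ester from high-density lipoprotein, read 238 and 61.2 TPM with NC-siRNA, then 197 and 63.7 TPM. NPC1L1, the sterol transporter blocked by ezetimibe, read 13.4 and 1.67 TPM, then 13.0 and 2.50 TPM, a difference of 2.43 with NC-siRNA. STARD4, a carrier of sterol between membranes, read 21.2 and 9.55 TPM, then 20.2 and 7.25 TPM. All 3 stood at least 2-fold higher in Huh7, though STARD4 was at 0.98 under upper-quartile scaling. MYLIP, a ubiquitin ligase that marks lipoprotein receptors for degradation, was the member at least 2-fold lower in Huh7 with NC-siRNA. It read 3.16 against 8.15 TPM there, a difference of −1.14 that was −0.92 under median-of-ratios scaling. With COP1-siRNA it read 3.63 against 5.34 TPM, and the difference, −0.45, did not pass. With NC-siRNA, LIPA, the lysosomal acid lipase, read 51.8 and 91.5 TPM. NPC1, which moves cholesterol out of lysosomes, read 23.7 and 15.9 TPM with NC-siRNA and 23.1 and 20.7 TPM with COP1-siRNA.

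The efflux genes did not move as a group. ABCA1, which loads cholesterol onto apolipoprotein A-I, read 15.9 TPM in Huh7 and 1.71 TPM in HepG2 with NC-siRNA, a difference of 2.64. ABCG5, ABCG8 and ABCG1 were listed at 0 to 0.11 TPM in Huh7 and at 0.41 to 1.62 TPM in HepG2. In Huh7 ABCG1 read 0.11 TPM with NC-siRNA and 0 with COP1-siRNA, and ABCG8 read 0 and 0.02 TPM. The 2 members lower in Huh7 with COP1-siRNA were ABCG1 and ABCG8, both of which rest on levels below 2 TPM. From scaled coverage these differences were −0.25 and −0.75. The deposited coverage was 0 and 0.03 in Huh7 and 0.49 and 1.84 in HepG2 with COP1-siRNA. With 1 added to scaled coverage, 2-fold was out of reach at such levels, so these values do not check the calls. DYNC2LI1, which overlaps ABCG5 on the opposite strand, read 33.5 TPM in HepG2 with NC-siRNA. The deposited tables do not say whether strand was used in counting.

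**Figure D3:**
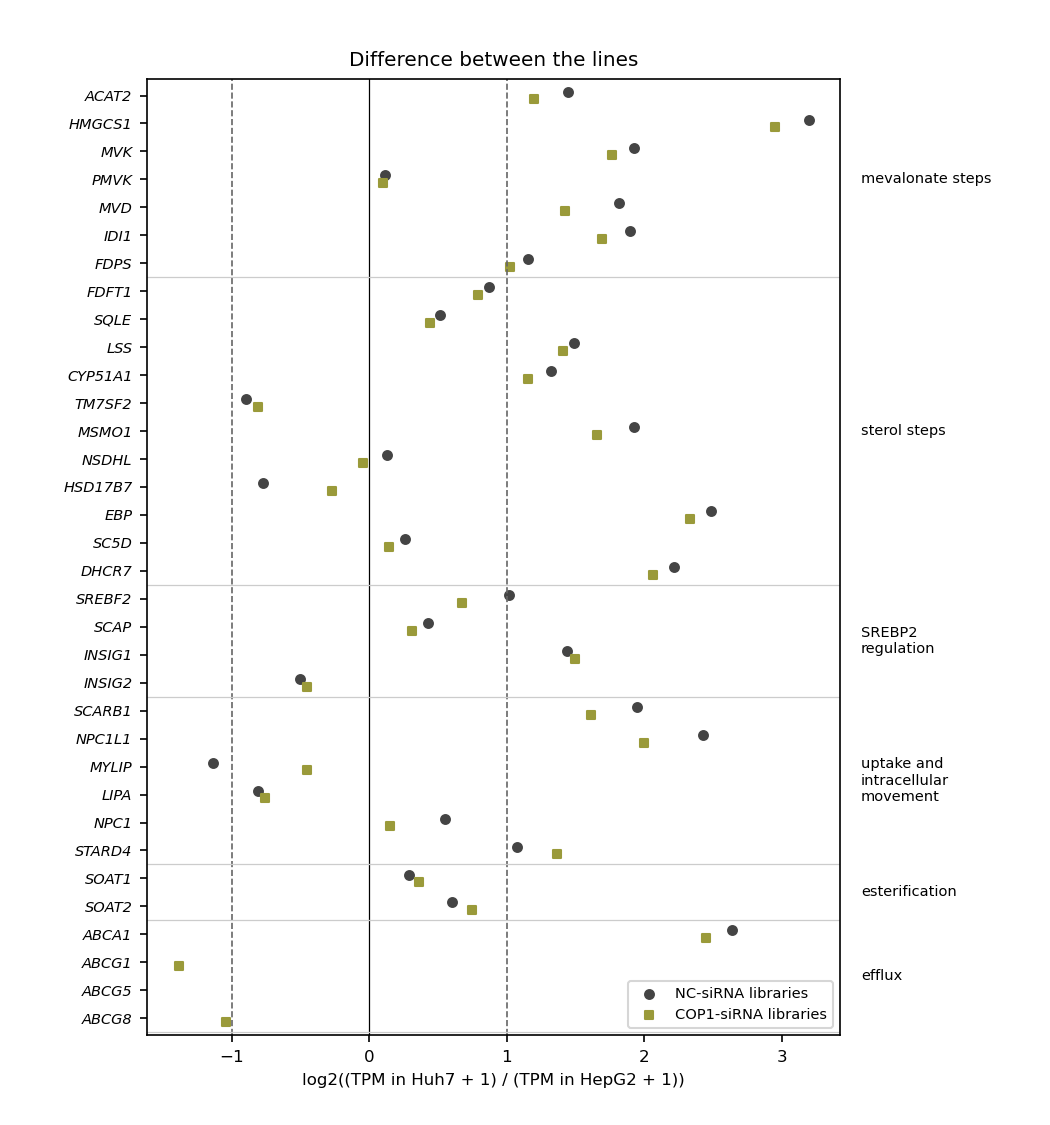
Difference between Huh7 and HepG2 for each gene on the log2(TPM + 1) scale (horizontal axis; 0 means equal, positive means higher in Huh7), from the NC-siRNA libraries (circles) and the COP1-siRNA libraries (squares). Dashed lines mark 2-fold. With NC-siRNA 17 of 31 genes lie beyond the right line and 1, MYLIP, beyond the left.

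COP1 knockdown in Huh7 went with slightly lower levels along the whole synthesis pathway, with none near 2-fold. Of 31 members tested, 0 were at least 2-fold higher (background 0.638% of 13000 genes) and 0 at least 2-fold lower (background 0.446%). At 1.5-fold, 1 was higher (background 2.8%) and 0 lower (background 2.68%). The fold change was below 0 for 26 of 31 members and for 18 of 18 synthesis genes (background 50.1% of all tested genes), though for 18 of 31 and 15 of 18 under upper-quartile scaling. That scaling moved the median of all genes to 0.12 and turned FDPS, FDFT1 and HSD17B7 to 0.08, 0.00 and 0.04. All 18 synthesis genes lay below the median of all genes under each scaling. The synthesis genes had a median of −0.22 and ran from −0.48 to −0.06, and their summed TPM was 3713, or 85.9% of the control's 4322. The middle 90% of all tested genes ran from −0.47 to 0.45, so the values of single synthesis genes were of the size met in many other genes.

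The lowest value was that of TM7SF2, 18.8 TPM in the control and 13.3 TPM after knockdown (−0.48), at percentile 4.92 of all tested genes. IDI1 (−0.41), MVD (−0.39), HMGCS1 (−0.33), SQLE (−0.31) and NSDHL (−0.31) followed, and these levels were 75.4% to 80.5% of control. SQLE read 157 and 127 TPM and NSDHL 89.7 and 72.2 TPM. The smallest differences were those of FDPS (−0.06), HSD17B7 (−0.09) and FDFT1 (−0.13). The mevalonate and sterol steps had like medians, −0.21 and −0.22. By expression level, the synthesis genes between 10 and 50, between 50 and 200 and above 200 TPM had medians of −0.19, −0.31 and −0.22, and all genes in these ranges had medians of −0.01, −0.02 and −0.01.

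In HepG2 the members' median was −0.05, and single members spread from −0.59 to 0.89. Of 33 members tested, 0 were at least 2-fold higher (background 0.54% of 14456 genes) and 0 at least 2-fold lower (background 0.394%). At 1.5-fold, 1 was higher (background 2.56%) and 1 lower (background 1.87%). The fold change was below 0 for 18 of 33 members and 14 of 18 synthesis genes (background 51.7%), but for 10 of 33 and 7 of 18 under upper-quartile scaling, which moved the median of all genes to 0.073. Relative to that median 14 of 18 synthesis genes were lower, as in the TPM values. The synthesis median was −0.07. Their summed TPM was 1412, or 95.4% of the control's 1481. The knockdown was also shallower in HepG2, where 59.9% of the COP1 level was left against 31.4% in Huh7, and the part of that in the difference between lines was not tested.

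The gene past 1.5-fold in HepG2 among synthesis genes was HSD17B7, with 26.6 TPM under NC-siRNA and 17.3 TPM under COP1-siRNA (−0.59), and it did not pass under median-of-ratios (−0.57) or upper-quartile scaling (−0.51). Its pseudogene HSD17B7P2, with which reads may be shared, read 1.53 and 1.26 TPM. TM7SF2 was close behind at −0.56, from 36.0 to 24.1 TPM, and was the synthesis gene with values near −0.5 in both lines. VPS51, which overlaps TM7SF2 on the same strand, read 38.2 and 38.1 TPM in HepG2 and 39.3 and 35.0 TPM in Huh7. SQLE (−0.24) and IDI1 (−0.20) had the next lowest values in HepG2.

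Side by side, 14 of 18 synthesis genes were below 0 in both lines (background 31% of 11970 genes tested in both), or 6 of 18 under upper-quartile scaling. As TPM, ACAT2, MVD, FDPS and MSMO1 were below 0 in Huh7 and above in HepG2. The value was lower in Huh7 than in HepG2 for 16 of 18, all but TM7SF2 and HSD17B7. It was lower for 15 to 17 under the other scalings, scaled coverage and a pseudocount of 0.1. Of the other members tested in both lines, 6 of 13 had the lower value in Huh7. The share of all tested genes with a lower value in Huh7 was not computed, so these counts have no background. Whether the lines differed in their response could not be tested with 1 library each.

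**Figure D4:**
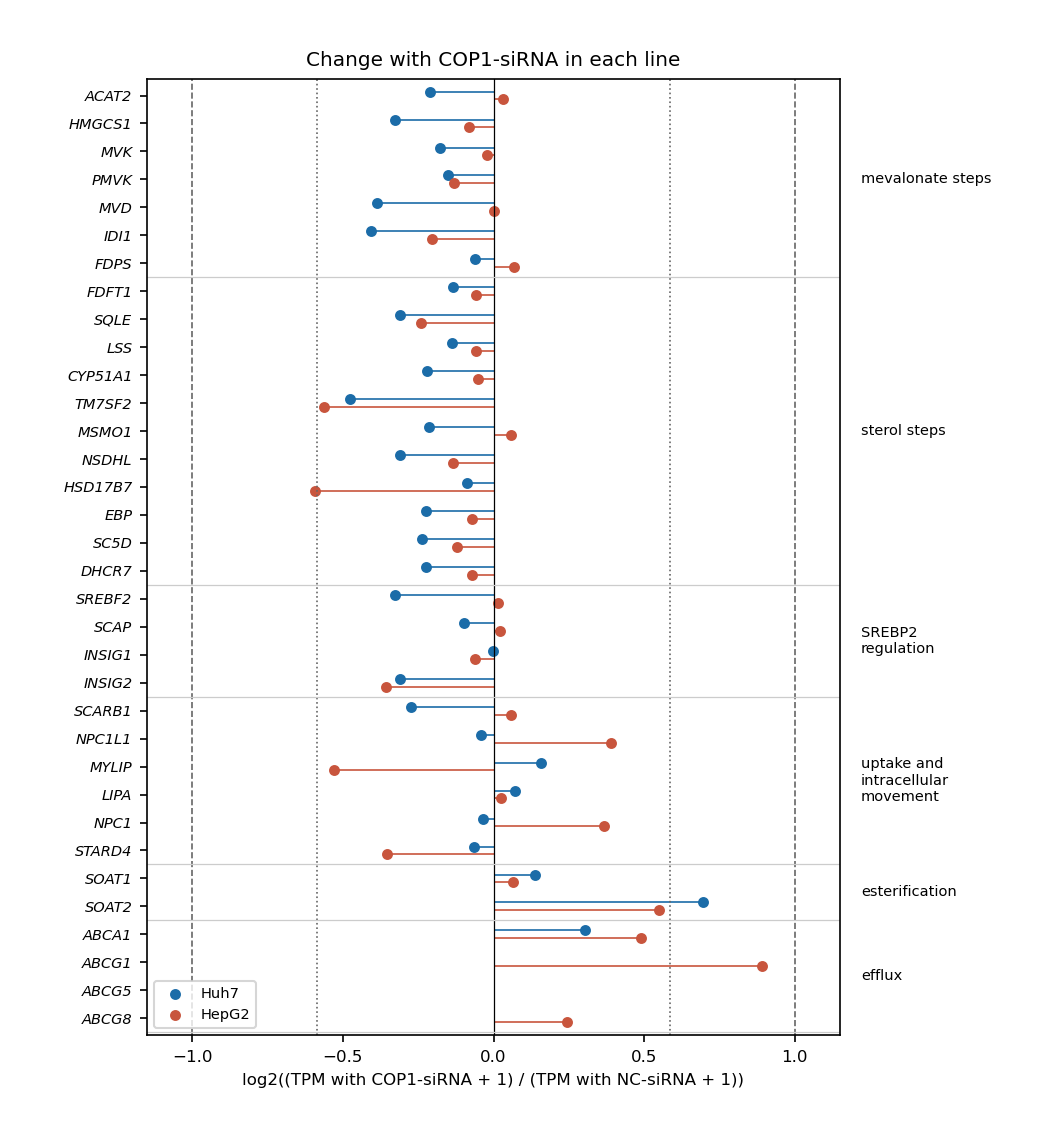
Log2((TPM + 1) with COP1-siRNA over (TPM + 1) with NC-siRNA) for each gene (horizontal axis) in Huh7 (blue) and HepG2 (red), 1 library per siRNA, shown where the gene had at least 1 TPM. Dotted and dashed lines mark 1.5-fold and 2-fold. All 18 synthesis genes lie left of 0 in Huh7 (15 under upper-quartile scaling), and SOAT2, ABCG1 and HSD17B7 pass the dotted lines.

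Outside synthesis, 8 of 13 members tested lay below 0 in Huh7 (background 50.1%), and 11 of 15 lay above 0 in HepG2 (background 48.3%). ABCG1 and ABCG8 were among the 15 only through their COP1-siRNA level. In Huh7 4 of 4 regulators lay below 0, with a median of −0.20, and so did 4 of 6 uptake genes. Under upper-quartile scaling these counts were 2 of 4 and 1 of 6. SREBF2 read 94.1 and 74.8 TPM in Huh7 (−0.33) and 46.0 and 46.5 TPM in HepG2 (0.01). INSIG2 had −0.31 in Huh7, where it read 9.05 and 7.11 TPM, and −0.36 in HepG2, with 13.2 and 10.1 TPM. INSIG1, itself a target of SREBP2, read 112 TPM in both Huh7 libraries (−0.00) and had −0.06 in HepG2. SCAP had −0.10 and 0.02, with 57.3 TPM in Huh7 and 46.0 TPM in HepG2 after knockdown.

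SCARB1 had −0.27 in Huh7 and 0.06 in HepG2. NPC1L1 and NPC1 had −0.04 each in Huh7 but 0.39 and 0.37 in HepG2, where NPC1L1 went from 1.67 to 2.50 TPM and NPC1 from 15.9 to 20.7 TPM. STARD4 had −0.07 and −0.35. MYLIP stood out for its signs, with 3.16 and 3.63 TPM in Huh7 (0.16) and 8.15 and 5.34 TPM in HepG2 (−0.53). LIPA was flat, with 54.6 TPM in Huh7 and 93.1 TPM in HepG2 after knockdown and differences of 0.07 and 0.02.

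The 2 esterification genes and ABCA1 had values above 0 in both lines under each scaling. ABCA1 was the only efflux gene tested in Huh7, and ABCG1 and ABCG8 passed the minimum in HepG2 only through the COP1-siRNA library. Without a minimum TPM, 3 efflux genes lay above 0 and 1 below in HepG2, and 2 above and 1 below in Huh7. SOAT2, the liver and gut form of the esterifying enzyme, read 4.19 and 7.41 TPM in Huh7 and 2.42 and 4.01 TPM in HepG2. It rose by 0.70 in Huh7, the one member past 1.5-fold there, and was 0.55 in HepG2, below that threshold except with a pseudocount of 0.1 (0.70) or upper-quartile scaling (0.62). SOAT1, the widely expressed form, read 32.4 and 35.7 TPM in Huh7 (0.14) and 26.3 and 27.6 TPM in HepG2 (0.06). ABCA1 read 15.9 and 19.8 TPM in Huh7 (0.30) and 1.71 and 2.81 TPM in HepG2 (0.49). The HepG2 value was 0.68 with a pseudocount of 0.1, where it passed 1.5-fold. From scaled coverage, to which 1 was also added, it was 0.28. The deposited coverage was only 1.33 and 2.59 there, so the added 1 shrinks that value.

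ABCG1, a transporter that passes cholesterol to high-density lipoprotein, was the member past 1.5-fold upward in HepG2, from 0.41 to 1.62 TPM (0.89). Its scaled coverage, the mean read depth over the gene, differed by 0.05 between the same libraries, so the value depends on how the level was computed. The deposited coverage was 0.30 and 0.49, and the 1 added to scaled coverage shrinks a difference at such levels. ABCG8, which pairs with ABCG5 to secrete sterol into bile, read 0.76 and 1.09 TPM in HepG2 (0.24), and ABCG5 0.98 and 0.50 TPM, below the minimum. ABCG1, ABCG5 and ABCG8 were not tested in Huh7.

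**Figure D5:**
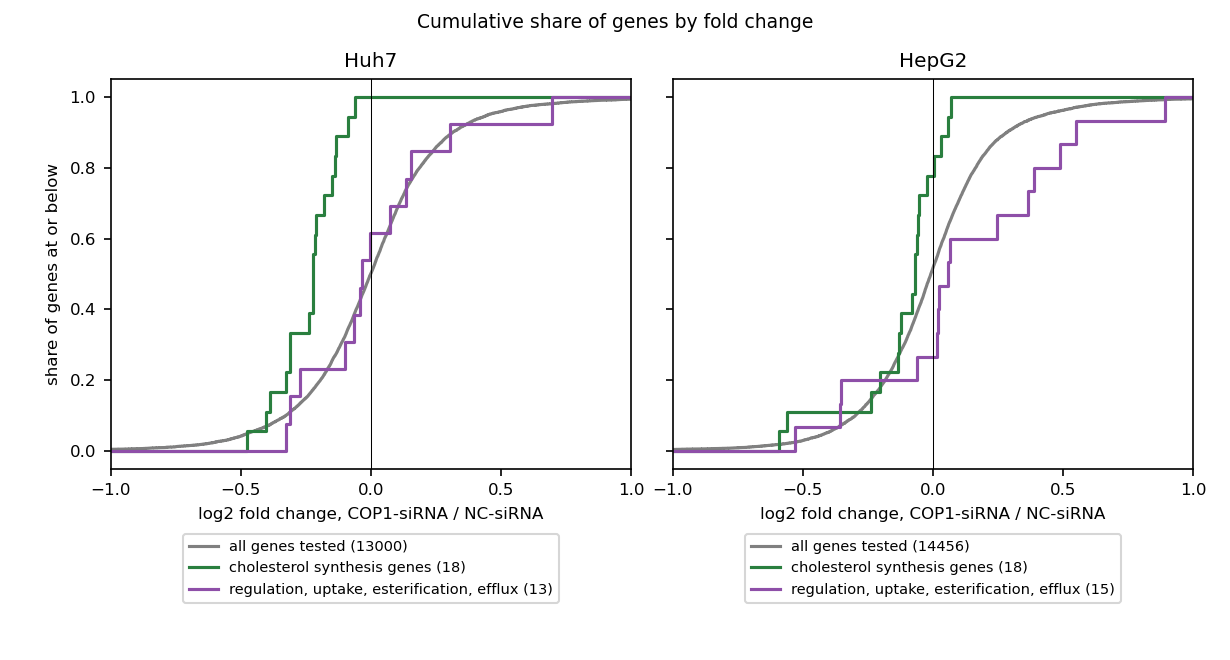
Cumulative share of genes (vertical axis) at or below each log2 fold change of COP1-siRNA over NC-siRNA (horizontal axis) in Huh7 (left) and HepG2 (right), for all genes tested, the 18 synthesis genes and the other members tested. The synthesis curve lies left of 0 in Huh7 (for 15 of 18 genes under upper-quartile scaling), with a median of −0.22, and near 0 in HepG2, with a median of −0.07.

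Further genes of the pathway were counted from lists of 10 each. Of genes for SREBP cleavage and sterol-regulated degradation, 1 of 10 was at least 1.5-fold lower in Huh7 (background 2.68%) and 0 of 10 in HepG2 (background 1.87%). It was UBE2G2, a ubiquitin-conjugating enzyme of the endoplasmic reticulum, which fell from 52.1 to 30.2 TPM in Huh7 (−0.77) and read 141 and 105 TPM in HepG2 (−0.43). The list's medians were 0.00 and −0.05. Of sterol transport and ester hydrolysis genes, 0 of 8 tested in Huh7 and 0 of 10 in HepG2 passed 1.5-fold. Below 0 lay 2 of 8 in Huh7 (background 50.1%) and 5 of 10 in HepG2 (background 51.7%), with a median of 0.03 in each line. The lowest value of that list in Huh7 was that of TMEM97, a membrane protein that binds NPC1 and is induced by SREBP2. TMEM97 read 288 and 220 TPM in Huh7 (−0.39) and 64.6 and 63.6 TPM in HepG2 (−0.02).

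Of the liver X receptors and their targets, a list that shares 5 genes with the members, 0 of 7 tested in Huh7 passed 1.5-fold (background 2.8% higher and 2.68% lower). In HepG2 1 of 9 was higher (background 2.56%), ABCG1, whose value from scaled coverage was 0.05. There 8 of 9 lay above 0 (background 48.3%) with a median of 0.17. The median was 0.081 from scaled coverage and 0.079 with a minimum of 5 TPM. ABCG1 and ABCG8 were among the 9 only through their COP1-siRNA level, and without a minimum 8 of 10 lay above 0. The 1 added to scaled coverage shrinks its values for the low genes of this list. In Huh7 4 of 7 lay above 0, with a median of 0.02. NR1H3, the receptor LXR alpha, read 29.2 and 27.1 TPM in Huh7 (−0.10) and 7.95 and 11.2 TPM in HepG2 (0.45, or 0.21 from scaled coverage). Of the isoprenoid branch, which draws farnesyl pyrophosphate into prenylation, dolichol and ubiquinone, 0 of 10 passed 1.5-fold in either line, and the medians were −0.06 and 0.04. Its lowest gene, FNTB, a farnesyltransferase subunit, had −0.39 and −0.45.

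All 7 hepatocyte markers lay below 0 in Huh7 (background 50.1%), with a median of −0.13. Under upper-quartile scaling 3 of 7 lay below 0, and all 7 were below the median of all genes. All 7 lay above 0 in HepG2 (background 48.3%), with a median of 0.27. FGB, a fibrinogen chain, rose from 6.97 to 15.5 TPM in HepG2 (1.05) and read 2461 and 2403 TPM in Huh7. The summed level of the list was 87.6% of control in Huh7 and 111% in HepG2. Its part in the values of the sterol genes was not tested.

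The 3′ UTRs of the members were read for AGCAGTC, a 7-base sequence picked in earlier work on these libraries after their values were seen. It was present in LSS and SREBF2, 2 of the 31 members tested in both lines (6.45%), and in 9.52% of 10315 genes tested in both lines with a 3′ UTR in GENCODE 29. The other synthesis genes held no copy.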

How the data were processed

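RNA of Huh7 and HepG2 cells was measured with 1 library per line and siRNA. The submitters' notes name FastQC 0.11.7, Trimmomatic 0.38, HISAT2 2.1.0, StringTie 2.1.3b, edgeR and the build GRCh38. Each deposited table gives coverage, FPKM and TPM per gene. TPM, as deposited, is normalized by library and its values sum to 1000000. The FPKM values the authors deposited are proportional to TPM and were not used further. The coverage the authors deposited is a mean read depth per base, not normalized. The tables hold no read counts, so depth is unknown. Coverage per FPKM put the COP1-siRNA library at 1.14 times the depth of its control in Huh7 and 1.28 times in HepG2. Use of strand in counting is not given in the sources used here, and 10 members overlap another gene of at least 1 TPM, 2 of them on the same strand.

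Gene numbers were matched to RefSeq symbols, 34 of 34 members being found, and repeated lines of a number were summed. The fold change was log2((TPM + 1)/(TPM + 1)), a scale that understates the change of low genes, for genes of at least 1 TPM in at least 1 library. Thresholds were 2-fold, as in the study, and 1.5-fold. A test within a line was not possible with 1 library per siRNA, and a test over both lines, with the lines as pairs and 1 residual degree of freedom, was not run. The fold-change computation was tested on simulated data. Members and lists were chosen with earlier results of these data known. Values in all 4 libraries were given for members past 1.5-fold in a line or past 2-fold between lines with NC-siRNA, the 4 regulators and the 3 most abundant of each role group. PMVK, SQLE, TM7SF2, NSDHL, SC5D and ABCG5 fall outside that rule and were described after their values were seen. Alternatives were a pseudocount of 0.1, median-of-ratios and upper-quartile scaling, no minimum or a minimum of 5 TPM, scaled coverage in place of TPM and, chosen after seeing the data, scaling without the 10 highest genes. For scaled coverage, 1 was added before the ratio as for TPM, which understates the change of genes with low coverage. Promoter windows came from RefSeq (GRCh38.p14). A comparison of paralog proteins was not run. Python 3.11.15, numpy 2.4.6, pandas 2.3.3, SciPy 1.17.1 and matplotlib 3.10.9 were used.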

Additional observations from a re-analysis of the deposited data

Results flagged for a closer look

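MYLIP differed in sign by line, at 0.16 for Huh7 and −0.53 for HepG2 as log2((TPM + 1)/(TPM + 1)) of COP1-siRNA over NC-siRNA, and the difference was not tested because each line had 1 library per siRNA. The hepatocyte lineage list also differed in sign, its median being −0.13 for Huh7 and 0.27 for HepG2, and this difference was not tested either. Under upper-quartile scaling the Huh7 median was 0.0054, with all 7 genes below the median of all genes, 0.12.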

How the results depend on the processing

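Each value was recomputed under the alternatives. No member past 1.5-fold changed sign under any of them. For Huh7 members, upper-quartile scaling gave a median of −0.044 and a synthesis median of −0.087, while the median of all genes moved to 0.12. For HepG2, that scaling put 7 synthesis genes below 0 in place of 14, while the median of all genes moved to 0.073 and 14 synthesis genes lay below it in both settings. A pseudocount of 0.1 put 1 HepG2 member, ABCG1, past 2-fold. The 1.5-fold threshold gave 1 higher and 0 lower in Huh7 and 1 higher and 1 lower in HepG2. Between the lines, median-of-ratios scaling gave medians of 1.32 for members and 1.64 for synthesis genes, with 0 members lower, while the median of all genes moved from −0.37 to −0.12 and the share of higher calls among all calls from 34.6% to 44.7%. Without a minimum TPM the members' median was 0.94. The 1.5-fold threshold gave 4 members lower, and the COP1-siRNA libraries gave 2 lower, a median of 0.79 and a synthesis median of 1.18. COP1 in Huh7 was −1.66 with a pseudocount of 0.1, −1.40 with upper-quartile scaling and −1.12 with scaled coverage, where HepG2 gave −0.56.

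Over all genes, 83 were called higher and 58 lower at 2-fold in Huh7, against 249 and 141 with a pseudocount of 0.1, 34 and 42 with a minimum of 5 TPM and 115 and 33 with upper-quartile scaling, where 77.7% of calls were higher in place of 58.9%. In HepG2 the counts were 78 and 57, against 227 and 145 and 29 and 26. Between the lines 4194 genes were lower, against 2795 with a minimum of 5 TPM.

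No replicate was left out, since each group held 1 library. A paired analysis with the lines as pairs, which leaves 1 residual degree of freedom, was not run. Read depth is unknown, so values below about 2 TPM, as for ABCG1, ABCG5 and ABCG8, have no stated precision.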
